A study of Homo sapiens with 4 samples.

Results

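The genes described here are the collagens together with fibronectin, matricellular glycoproteins, small proteoglycans, elastic fibre proteins and lysyl oxidases, as measured on whole-genome arrays of A2780s cells. Members were chosen by gene name: every collagen chain gene, and 18 further genes led by FN1. The rule found 61 genes among the 29123 named on the array, read by 106 of 41000 probes and 169 of 43376 non-control spots, and the rule itself used no measured value. A2780s is an established human epithelial ovarian cancer (EOC) cell line. Total RNA came from 2 clones in which GALNT3 was knocked out with CRISPR/Cas9 and a repair plasmid (GALNT3 KO), and from 2 clones that also carried a lentiviral short hairpin RNA against GALNT6 (GALNT3/T6 KO). GALNT3 and GALNT6 encode enzymes that attach the first sugar of O-glycans to proteins. The control (Ctrl) was mock-transfected A2780s cells. The array methods speak of corresponding Ctrl clones without stating whether 1 clone served all arrays. Each KO clone was hybridized with Ctrl RNA on an array of its own, Ctrl in Cy3 and KO in Cy5 on all 4 arrays by the sample labels, and all arrays lay on 1 slide. By the methods, puromycin was used to select both kinds of KO clone, while lentivirus was given to the GALNT3/T6 KO clones, so an effect of the virus cannot be told apart from that of the hairpin.

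Fibronectin is a secreted dimeric glycoprotein that cells assemble into fibrils through integrins, and the fibrils serve as a scaffold for collagen deposition. Collagens are trimers of chains whose triple-helical parts are built of Gly-X-Y repeats, with glycine in 1 of 3 residues. Fibrillar collagens make up the tensile fibers of the interstitial matrix, network-forming collagens such as type IV make up basement membranes, and lysyl oxidases cross-link collagen and elastin outside the cell. Matricellular glycoproteins such as SPARC and the thrombospondins bind to this matrix and to cell receptors without being structural fibers. In ovarian tumors these genes are best known from stromal fibroblasts, and carcinoma cells can express them as well.

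Unless stated otherwise, a value is the log2 ratio of the KO over the Ctrl channel, so 1 unit is a doubling, and a positive value means more signal in the KO channel. A gene was called higher or lower when the Benjamini-Hochberg adjusted p from limma, taken over all 27223 genes tested, was at most 0.05 and the change at least 1.5-fold. The KO replicates are separate clones, but no array set Ctrl against Ctrl, so the tests do not contain the spread of Ctrl. No dyes were swapped by the labels, so a dye effect stays in every ratio against Ctrl. The number of arrays limits the precision, and every value below has n = 2 arrays per group.

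The targeted genes were read first. GALNT3 did not rise well above background in any channel of the GALNT3 KO arrays, where its log2 ratios were 0.13 and 0.24. On the GALNT3/T6 KO-labelled arrays it was 4.80 and 5.08, with the KO channel far above Ctrl, which goes against that label. The group is therefore named by its label throughout, and each direction drawn from it rests on that label. GALNT6 was -0.47 and -0.38 in GALNT3 KO, and -0.66 and -0.69 on the GALNT3/T6 KO-labelled arrays. Across all genes the ratios correlated at 0.834 between the GALNT3 KO arrays, at 0.916 between the GALNT3/T6 KO-labelled arrays, and at 0.205 to 0.323 between groups. Per channel, 86.9% to 93.8% of spots were well above background, and saturation was absent. Of 6 epithelial markers 5 were well above background in all channels, and their summed signal in the KO channel was 7339 and 8417 in GALNT3 KO against 887863 and 946209 on the GALNT3/T6 KO-labelled arrays. In the Ctrl channel of the same arrays the epithelial sum was 6227 to 6696 and 32707 to 44840, respectively. A sum does not describe each marker. On the GALNT3/T6 KO-labelled arrays the mean ratio was 5.68 for KRT18, 4.81 for KRT19, 2.89 for KRT7, 2.83 for KRT8 and 0.75 for CDH1. EPCAM was -0.05 and 1.36 there and was not called.

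FN1 was read by 3 probes of 60 bases, and their sequences are printed because they disagree. All are on the minus strand of chromosome 2 (hg19) and lie in the coding sequence. Each covers more genome than its own length, so each crosses at least 1 exon junction. The 5′ probe reads the amino-terminal collagen-binding part of the protein, the middle probe a fibronectin type III repeat, and the 3′ probe the part near the carboxy terminus.
FN1 5′ probe, A_24_P334130, chr2:216288217-216288895: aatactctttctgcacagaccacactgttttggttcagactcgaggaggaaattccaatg
FN1 middle probe, A_24_P85539, chr2:216235126-216236661: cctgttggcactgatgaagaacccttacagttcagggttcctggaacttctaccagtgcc
FN1 3′ probe, A_24_P119745, chr2:216226332-216226733: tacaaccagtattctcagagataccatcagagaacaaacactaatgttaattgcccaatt
The scanner files place the 3′ and middle probes on the long FN1 transcript NM_212482, and the 5′ probe on a short form, NM_054034. The 3′ probe was printed on 10 spots of each array, the other two on 1 spot each.

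The 3′ probe gave log2 ratios of 0.11 and 0.09 in GALNT3 KO, but neither channel was well above background there, so a change could not be measured. On the GALNT3/T6 KO-labelled arrays it gave 3.21 and 4.17, and the mean was 3.69 (standard error 0.23, adjusted p = 0.000469 over 38247 probes, limma). The probe passed the filter on dim probes only through these arrays, where it is high. The standard error also draws on the dim GALNT3 KO ratios, so this p is to be read with that limit. Its normalized log2 signal in the KO channel was 6.64 and 6.48 in GALNT3 KO, and 11.07 and 13.57 on the GALNT3/T6 KO-labelled arrays. Both arrays of the second group thus lay above both of the first, which adds no support because the probe was kept through the second group alone. The mean KO channels differed at least 44.5-fold between the groups, a lower bound without a test. It holds for the group mean, and a single clone need not reach it. The Ctrl channel of this probe was not level either. It was 6.53 and 6.39 on the GALNT3 KO arrays, both not well above background, and 7.86 and 9.39 on the GALNT3/T6 KO-labelled arrays.

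The middle probe gave -0.14 and -0.27 in GALNT3 KO, and 0.41 and 1.45 on the GALNT3/T6 KO-labelled arrays. Its mean of 0.93 in the second group passed the test (standard error 0.25, adjusted p = 0.0347), and its difference of 1.13 between the groups did not (adjusted p = 0.0839). With either GALNT3 KO array left out the middle probe's mean stayed at 0.93, and its call ended through the shared estimate of spread alone. That call also ended without GALNT3/T6 KO replicate 2, where the ratio of 0.41 was under 1.5-fold. The 5′ probe stayed near 0 on every array, at -0.07, -0.22, -0.23 and -0.03, and was called in no comparison. On the GALNT3 KO replicate 1 array it was not well above background. Over all probes tested, either direction counted, 7.15% were called in GALNT3 KO against Ctrl, 32.2% on the GALNT3/T6 KO-labelled arrays against Ctrl, and 23.6% between the groups. With the mean of the 3 FN1 probes in place of the brightest, the log2 ratio of the gene on the GALNT3/T6 KO-labelled arrays was 1.5. The size of the FN1 change thus depends on the probe that was read. In these bulk samples more cells of a type and more RNA per cell cannot be told apart.

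**Figure D1:**
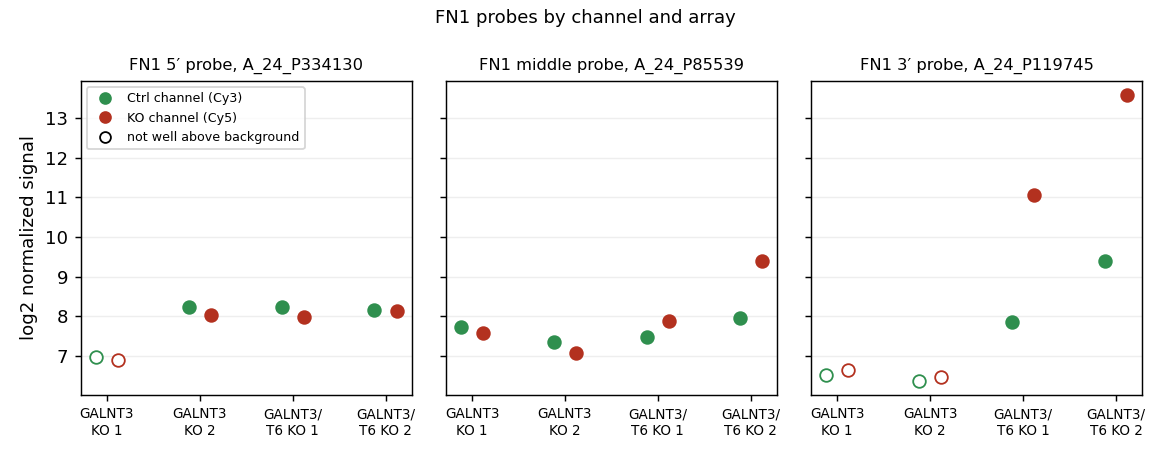
Normalized log2 signal of the 3 FN1 probes in the Ctrl channel (green) and the KO channel (red) on each of the 4 arrays; open circles are signals not well above background. The 3′ probe rises to 11.07 and 13.57 in the KO channel of the GALNT3/T6 KO-labelled arrays, and its Ctrl channel rises to 7.86 and 9.39, while the channels of the 5′ probe lie close together on every array.

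The 250 bases upstream of the FN1 start are shown because FN1 was among the members with the largest rise on the GALNT3/T6 KO-labelled arrays. The sequence is RefSeq's (GRCh38.p14, chr2:215436069-215436318, minus strand), and the capitals mark a TGACGTCA element, the palindromic binding motif of cyclic AMP response factors, 183 bases before the start.
FN1 upstream: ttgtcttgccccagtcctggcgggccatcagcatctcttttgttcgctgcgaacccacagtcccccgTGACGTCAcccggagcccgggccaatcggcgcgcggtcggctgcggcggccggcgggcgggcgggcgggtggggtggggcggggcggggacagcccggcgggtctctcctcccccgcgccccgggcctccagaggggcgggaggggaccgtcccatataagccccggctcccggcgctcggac
RefSeq windows were matched for 45 of the 61 genes. TGACGTCA was found in 1.65% of 35116 such windows, either strand searched, and among the matched members only in FN1. GGGCGG, the letters bound by SP1, stood in 42.6% of all windows and occurred 6 times in this one. A match is a description of the sequence and was not linked to any reading here.

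Of the 61 member genes 60 were tested, and COL8A2 was not well above background in any channel. In GALNT3 KO against Ctrl 3 members were higher and 1 lower, where 2.34% of all genes tested were higher and 4.45% lower. On the GALNT3/T6 KO-labelled arrays 19 members were higher and 8 lower against Ctrl, which is 31.7% and 13.3% of those tested, beside 14.2% and 16.8% of all genes. Between the groups 18 members were higher in GALNT3/T6 KO and 6 lower, which is 30% and 10%, beside 11.2% and 11% of all genes. The median log2 ratio of the members was 0.11 in GALNT3 KO, 0.23 on the GALNT3/T6 KO-labelled arrays and 0.04 for the difference, where the medians of all genes were 0.02, 0.03 and -0.00. By the labelled direction, the share called lower was near the background, and the share called higher on the GALNT3/T6 KO-labelled arrays was above it. Because GALNT3 goes against that label, the counts were also taken with the sign of those arrays turned. This gave 8 members higher and 19 lower against Ctrl and 7 higher and 27 lower between the groups. Turning the sign covers an exchange of channels alone, and whether these arrays held the named clones was not tested. On the GALNT3/T6 KO-labelled arrays, the calls of THBS1, COL18A1, FBN2 and COL3A1 against Ctrl were lost with median centring, at 0.58, 0.54, 0.71 and -1.05. Those of LUM and COL4A3 were lost with the mean of all probes, at -0.57 and 0.44. With median centring in place of loess, the split of all genes in GALNT3 KO moved from 638 higher and 1211 lower to 481 and 1606. Both comparisons with Ctrl use Ctrl RNA, and the difference between groups rests on the Ctrl channels too.

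In GALNT3 KO the members that rose, each read by its brightest probe, were BGN, COL25A1 and COL1A2, and the one that fell was LUM. BGN, which encodes the small proteoglycan biglycan, was 0.77 and 1.30 (mean 1.03, adjusted p = 0.0379, limma). COL25A1, a transmembrane collagen, was 0.56 and 0.82 (mean 0.69, adjusted p = 0.0333). COL1A2, the α2 chain of type I collagen, was 0.69 and 0.54 (mean 0.62, adjusted p = 0.0315). LUM, the keratan sulfate proteoglycan lumican, was -1.12 and -1.02 (mean -1.07, adjusted p = 0.0121). For each of these genes both clones lay on the same side of Ctrl, which adds no support beyond the calls. Leaving out either GALNT3 KO array left 1 array in that group, with its spread taken from the other group. All 4 calls were lost in that fit, but calls were lost over all genes as well. It therefore shows nothing particular to these 4 genes. COL25A1, COL1A2 and LUM also have further probes, whose means were -0.08 to 0.23 and were not called, and their calls ended with the mean of all probes. With the scanner's own log ratio BGN and COL25A1 were not called. A second, dimmer probe called 2 more genes in GALNT3 KO, COL17A1 as higher at 0.63 and 0.82 (mean 0.72, adjusted p = 0.0291) and COL3A1 as lower (mean -0.73, adjusted p = 0.0412).

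Lysyl oxidases held the largest rises on the GALNT3/T6 KO-labelled arrays. LOXL1, a paralog known for elastic fiber upkeep, was -0.48 and -0.41 in GALNT3 KO, and 3.77 and 4.26 on the GALNT3/T6 KO-labelled arrays (mean 4.02, standard error 0.14, adjusted p = 0.000135, limma). LOX, the founding cross-linking enzyme, was 0.09 and 0.07, and 3.61 and 3.91 (mean 3.76, standard error 0.10, adjusted p = 0.000101). The groups did not overlap for either gene, which adds no support beyond the calls. The second LOX probe gave 2.2 and 3.18 on the GALNT3/T6 KO-labelled arrays. It was dim in Ctrl on 3 of 4 arrays and in both channels of the GALNT3 KO arrays. LOXL3 was -0.38 and -0.48 against 0.21 and 0.68, and it was called only for the difference of 0.88 between groups (adjusted p = 0.0342). LOXL2 and LOXL4 were called in no comparison, with means of 0.24 and 0.11 on the GALNT3/T6 KO-labelled arrays.

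Of 5 matricellular glycoproteins 4 were higher on the GALNT3/T6 KO-labelled arrays, where 14.2% of all genes were higher. None was called in GALNT3 KO. SPARC, a collagen-binding glycoprotein also named osteonectin, was 0.03 and 0.40 in GALNT3 KO, and 3.17 and 3.69 on the GALNT3/T6 KO-labelled arrays (mean 3.43, standard error 0.17, adjusted p = 0.000285, limma). THBS2, the antiangiogenic thrombospondin-2, was 0.06 and 0.19 against 2.34 and 3.47 (mean 2.90, adjusted p = 0.00167), and its second probe gave 2.67 and 3.60. POSTN, or periostin, which binds to collagen and integrins, was -0.10 and -0.49 against 1.28 and 2.81 (mean 2.05, adjusted p = 0.0117). For these genes both clones of the second group lay above both clones of the first, which adds no support beyond the calls. With either GALNT3 KO array left out the POSTN mean stayed at 2.05, and its call ended through the shared estimate of spread alone. THBS1, which activates latent TGF-β, rose less, at 0.77 and 0.68 (mean 0.72, adjusted p = 0.00365). TNC, or tenascin-C, stayed at 0.19 and 0.22 and was not called.

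**Figure D2:**
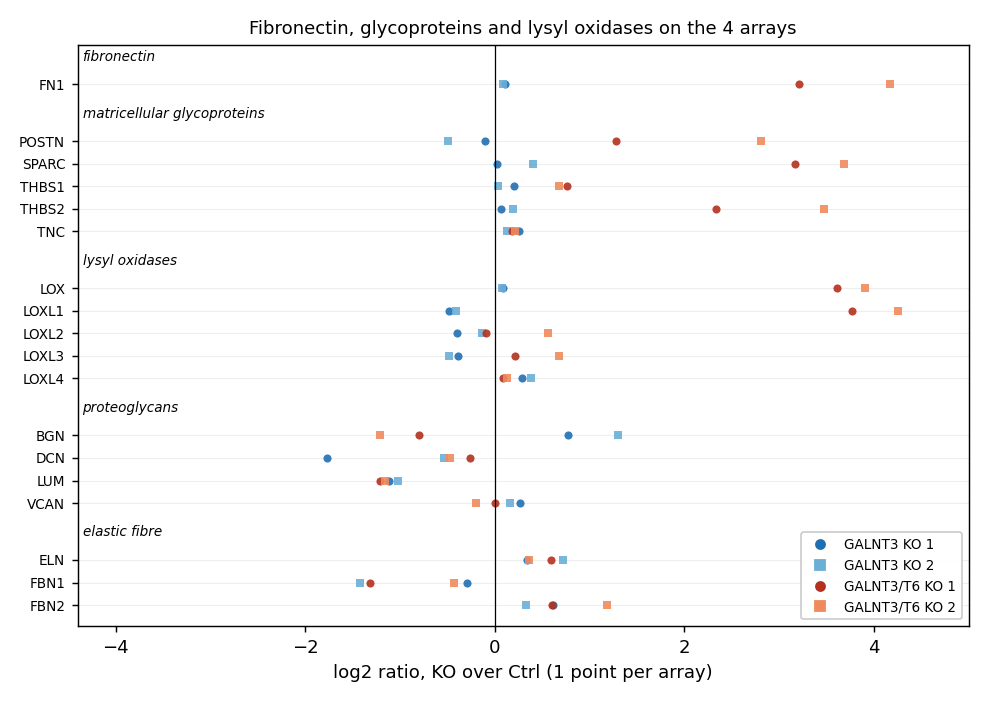
Log2 ratios of KO over Ctrl for FN1, matricellular glycoproteins, lysyl oxidases, proteoglycans and elastic fibre genes, 1 point per array (blue, GALNT3 KO; red and orange, GALNT3/T6 KO). FN1, SPARC, THBS2, LOX and LOXL1 sit between 2.34 and 4.26 on the GALNT3/T6 KO-labelled arrays and between -0.48 and 0.40 in GALNT3 KO, and BGN lies on opposite sides of 0 in the groups.

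Network-forming collagens rose in 5 of 8 genes tested on the GALNT3/T6 KO-labelled arrays, or 62.5%, beside 14.2% of all genes. None was called in GALNT3 KO. COL4A2, the α2 chain of type IV collagen, was -0.08 and 0.14 in GALNT3 KO, and 3.23 and 3.93 on the GALNT3/T6 KO-labelled arrays (mean 3.58, standard error 0.19, adjusted p = 0.000337, limma). COL4A1, its partner chain, was 0.58 and 0.41 against 1.18 and 1.24 (mean 1.21, adjusted p = 0.000781). COL4A4, a chain of kidney-type basement membrane, was -0.01 and 0.07 against 1.76 and 2.78 (mean 2.27, adjusted p = 0.00265), although both its channels were dim on GALNT3 KO replicate 1. COL4A3 was -0.01 and 0.00 against 0.67 and 1.20 (mean 0.94, adjusted p = 0.00721). The dimmer second probes of COL4A1 and COL4A3 did not rise on the GALNT3/T6 KO-labelled arrays, with means of -0.01 and -0.05, and were not called. COL4A5 and COL4A6 moved apart in the clones, at -0.35 and 0.23 and at -0.66 and 0.53, and were not called. COL8A1, a short-chain collagen of vessel walls, was 2.04 and 1.81 (mean 1.93, adjusted p = 0.000285), and all 3 of its probes were called higher.

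The type IV genes lie in head-to-head pairs, each pair read outward from a shared region between the start sites. In GRCh38.p14 (RefSeq) 126 bases separate the starts of COL4A1 and COL4A2 on chromosome 13. For COL4A3 and COL4A4 on chromosome 2 the gap is 418 bases, and for COL4A5 and COL4A6 on chromosome X it is 379 bases between the nearest starts. By their brightest probes both members of the first 2 pairs were called higher, and neither COL4A5 nor COL4A6. The region between COL4A1 and COL4A2 is printed because the genes share it while the size of their rise differed, 1.21 against 3.58. The capitals mark a CCAAT box and a GGGCGG element, letters found on either strand in 32% and 42.6% of all windows.
COL4A1 to COL4A2, chr13:110307158-110307283, plus strand: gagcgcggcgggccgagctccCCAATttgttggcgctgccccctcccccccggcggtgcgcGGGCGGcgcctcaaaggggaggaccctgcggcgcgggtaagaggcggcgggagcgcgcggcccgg

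Among 11 fibrillar collagens 2 were higher and 3 lower on the GALNT3/T6 KO-labelled arrays. That was 18.2% and 27.3%, beside 14.2% and 16.8% of all genes, so the share higher was near the background. COL1A1, the α1 chain of type I collagen, was -0.14 and -0.05 in GALNT3 KO, and 1.77 and 2.20 on the GALNT3/T6 KO-labelled arrays (mean 1.98, standard error 0.13, adjusted p = 0.000559, limma). COL1A2, its partner in the type I trimer, ran the other way, at -0.26 and -0.37 (mean -0.32, under 1.5-fold). COL5A1, the type V chain that sets fibril diameter, was 1.56 and 2.36 (mean 1.96, adjusted p = 0.00241). Of the other type V chains, COL5A2 was -1.25 on one array and 0.66 on the other, so no direction could be given, and COL5A3 was 0.38 and 0.47 (mean 0.43, adjusted p = 0.0228, under 1.5-fold). COL27A1, a cartilage collagen, was -0.02 and -0.63 against -2.47 and -2.21 (mean -2.34, adjusted p = 0.00081). Its other 2 probes gave means of 0.22 and -0.19 and were not called. COL24A1 was -0.90 and -1.26 (mean -1.08, adjusted p = 0.00471).

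COL3A1, which forms thin fibers alongside type I, was 0.14 and -0.04 in GALNT3 KO, and -1.48 and -0.48 on the GALNT3/T6 KO-labelled arrays (mean -0.98, adjusted p = 0.0302, limma). Its other 2 probes were lower as well, with means of -1.77 and -2.23. With either GALNT3 KO array left out the mean of the brightest COL3A1 probe stayed at -0.98, and its call ended through the shared estimate of spread alone. That call also ended without GALNT3/T6 KO replicate 1, where the ratio of -0.48 was under 1.5-fold. One of the other COL3A1 probes reads the triple helix directly, as do probes of COL4A1 and COL4A5. These 3 of the 73 collagen probes carry a glycine codon in 1 of every 3 codons along their length, in capitals below (hg19).
COL3A1, A_24_P402242, chr2:189869076-189870120, plus strand: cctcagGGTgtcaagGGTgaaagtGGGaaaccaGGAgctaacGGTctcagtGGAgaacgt
COL4A1, A_24_P68342, chr13:110826340-110826846, minus strand: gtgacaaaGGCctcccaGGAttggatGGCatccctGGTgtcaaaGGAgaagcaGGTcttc
COL4A5, A_24_P290153, chrX:107869488-107869547, plus strand: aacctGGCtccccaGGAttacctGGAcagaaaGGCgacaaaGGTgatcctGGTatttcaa
The COL3A1 probe gave -0.72 and -0.74 in GALNT3 KO, and -2.01 and -1.53 on the GALNT3/T6 KO-labelled arrays. The COL4A1 probe gave -0.17, -0.10, -0.05 and 0.03 on the 4 arrays, so it did not show the rise that the brighter COL4A1 probe showed. The COL4A5 probe gave 0.23 and 0.76 on the GALNT3/T6 KO-labelled arrays and was not called.

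Fibril-associated collagens were higher in 3 of 10 genes and lower in 1 on the GALNT3/T6 KO-labelled arrays. That was 30% and 10%, beside 14.2% and 16.8% of all genes. COL12A1, which decorates type I fibrils, was -0.25 on both GALNT3 KO arrays, and 3.00 and 3.80 on the GALNT3/T6 KO-labelled arrays (mean 3.40, standard error 0.20, adjusted p = 0.000462, limma). COL16A1 was -0.51 and -0.53 against 2.33 and 2.04 (mean 2.19, adjusted p = 0.000265). COL9A3, a cartilage chain, was -0.19 and 0.01 against 0.99 and 2.14 (mean 1.56, adjusted p = 0.0112). With either GALNT3 KO array left out its mean stayed at 1.56, and the call ended through the shared estimate of spread alone. In each of these genes the groups did not overlap, which adds no support beyond the calls. COL19A1 was 0.21 and 0.14 against -0.65 and -0.69 (adjusted p = 0.00333). On both GALNT3/T6 KO-labelled arrays the KO channel was dim, so the gene was on average at least 1.33-fold lower than Ctrl there.

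Of the 4 transmembrane collagens COL17A1 and COL23A1 were lower on the GALNT3/T6 KO-labelled arrays, where 16.8% of all genes were lower. COL17A1, the hemidesmosomal collagen of epithelia, was 0.41 and -0.22 in GALNT3 KO, and -1.56 and -1.49 on the GALNT3/T6 KO-labelled arrays (mean -1.53, adjusted p = 0.00253, limma). COL23A1 was -0.04 and 0.29 against -1.48 and -1.49 (mean -1.48, adjusted p = 0.000808). COL18A1, the multiplexin that releases endostatin, was 0.68 and 0.90 (mean 0.79, adjusted p = 0.00399). None of the 5 beaded filament collagens of type VI was called in any comparison, with means between -0.11 and 0.43. COL7A1, the anchoring fibril collagen, stayed at 0.01 and -0.11.

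**Figure D3:**
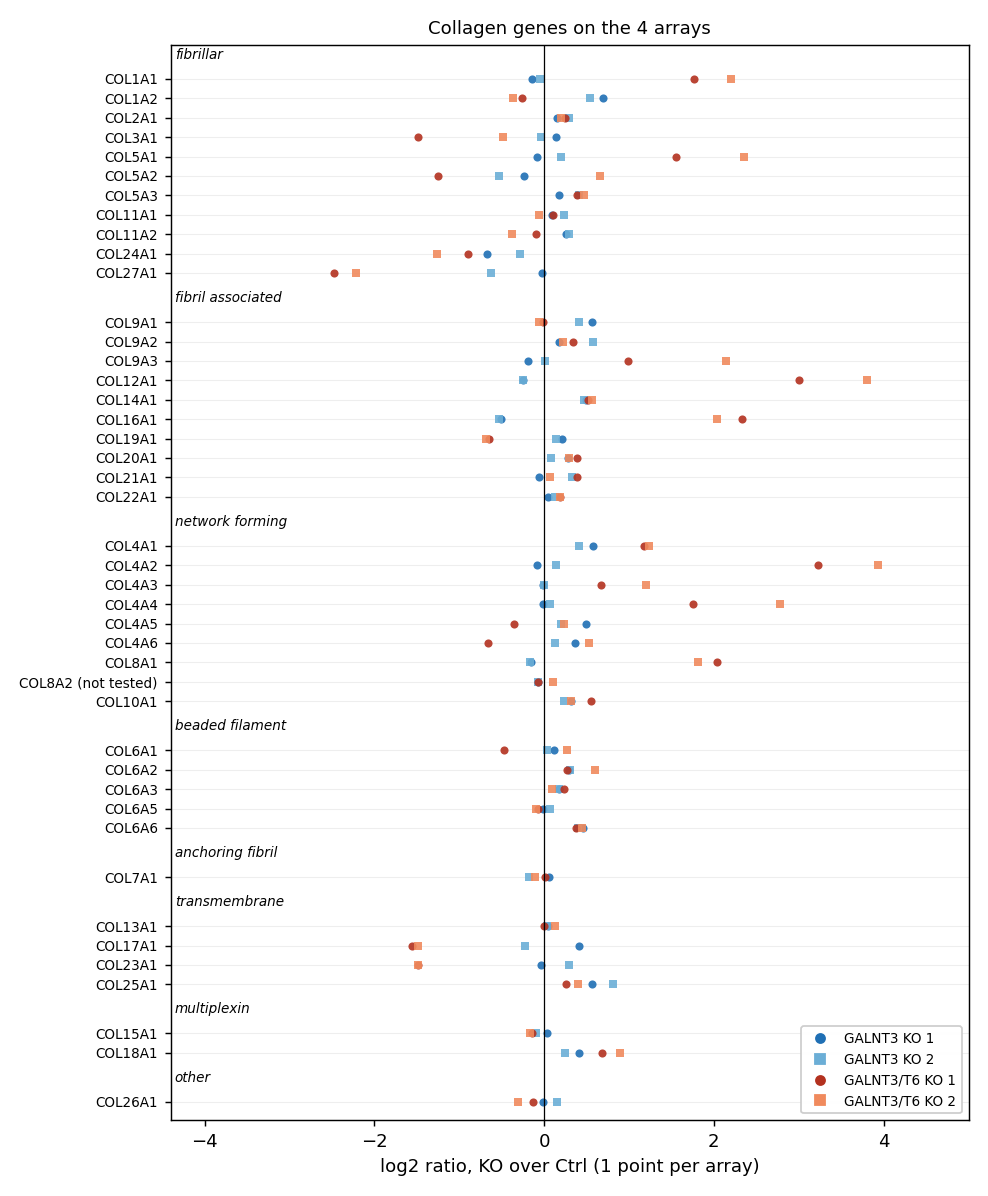
Log2 ratios of KO over Ctrl for the 43 collagen genes by structural class, 1 point per array (blue, GALNT3 KO; red and orange, GALNT3/T6 KO). COL4A2 and COL12A1 reach 3.00 to 3.93 on the GALNT3/T6 KO-labelled arrays, COL27A1 falls to -2.47 and -2.21, and the type VI genes stay within 0.6 of Ctrl on every array.

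Among the 4 small and large proteoglycans BGN and LUM were lower on the GALNT3/T6 KO-labelled arrays, where 16.8% of all genes were lower. BGN was -0.80 and -1.21 there (mean -1.0, standard error 0.17, adjusted p = 0.00997, limma), the opposite side of Ctrl from GALNT3 KO. LUM was -1.21 and -1.16 (mean -1.19, adjusted p = 0.000681), close to its values in GALNT3 KO, and its second probe gave 0.00 and 0.09. DCN, or decorin, was -1.77 and -0.54 in GALNT3 KO and -0.26 and -0.47 in the other group, and VCAN, or versican, lay within 0.27 of 0 on all arrays. Neither was called. Among elastic fibre genes FBN2 was 0.60 and 1.18 (mean 0.89, adjusted p = 0.013) on the GALNT3/T6 KO-labelled arrays. With either GALNT3 KO array left out its mean stayed at 0.89, and the call ended through the shared estimate of spread alone. FBN1, which encodes fibrillin-1, was -0.29 and -1.42 in GALNT3 KO and -1.32 and -0.43 in the other group, with the clones of each group far apart. ELN, or elastin, was not called.

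Set against each other, the groups differed in 24 members by both the adjusted p and 1.5-fold, and COL9A1, at -0.52 (adjusted p = 0.0405), passed the former alone. By the labelled direction, the largest differences measured on both sides, GALNT3/T6 KO minus GALNT3 KO, were 4.46 for LOXL1 (standard error 0.20, adjusted p = 0.000535, limma), 3.68 for LOX, 3.65 for COL12A1, 3.55 for COL4A2 and 3.22 for SPARC. With the sign of the GALNT3/T6 KO-labelled arrays turned, LOXL1 was at -3.57 and LOX, at -3.84, came first. FN1 is among the 24, but its 3′ probe was dim on the GALNT3 KO arrays and has only the lower bound given above. BGN at -2.04, COL27A1 at -2.02, COL17A1 at -1.62 and COL23A1 at -1.61 led the other direction, followed by COL1A2 at -0.93. COL19A1 was dim in the KO channel of the GALNT3/T6 KO-labelled arrays and was on average at least 1.45-fold lower between the KO channels. With all arrays 18 members were higher and 6 lower. Leaving out GALNT3 KO replicate 1 or GALNT3 KO replicate 2 left 1 array in that group. Fewer members were then called, but calls fell over all genes as well, so the fall is not particular to the members. LOX, LOXL1, SPARC, COL8A1, COL16A1 and COL23A1 were called in both cases. Without GALNT3/T6 KO replicate 2 the number lower was 10. LUM, COL24A1, COL3A1, FBN2 and COL18A1 were called against Ctrl on the GALNT3/T6 KO-labelled arrays, but their differences between groups did not pass the test, at -0.12, -0.60, -1.04, 0.42 and 0.46. Those are the brightest probes. Both other COL3A1 probes did pass, at -1.04 (adjusted p = 0.019) and -1.62 (adjusted p = 0.0186), as did a second FBN2 probe, at 1.01 (adjusted p = 0.00534). With median centring the differences of COL4A1, COL9A3, LOXL3, POSTN and THBS1 were not called, and with the mean of all probes those of COL1A2, COL4A1, COL4A3 and LOXL3.

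Probes of one gene did not always give one value. Of the 30 member genes with 2 or more tested probes, 7 had every probe called in one direction on the GALNT3/T6 KO-labelled arrays, 8 had only some called, and 15 had none called, while none had probes called in both directions. The genes with every probe called were COL12A1, COL5A1, COL8A1, LOX, THBS1 and THBS2, all higher, and COL3A1, lower. The dimmer COL12A1 and LOX probes were not well above background in either channel of the GALNT3 KO arrays. They passed the filter only through the GALNT3/T6 KO-labelled arrays, where they are high, so their agreement adds no support. In FN1 and FBN2 2 of 3 probes were called, and in COL27A1 1 of 3. The FN1 3′ probe likewise passed the filter through the GALNT3/T6 KO-labelled arrays alone. In COL4A1, COL4A3, COL17A1, COL18A1 and LUM 1 of 2 was called. Over all probes tested 32.2% were called on these arrays in either direction. Agreement within genes was counted for the members alone.

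**Figure D4:**
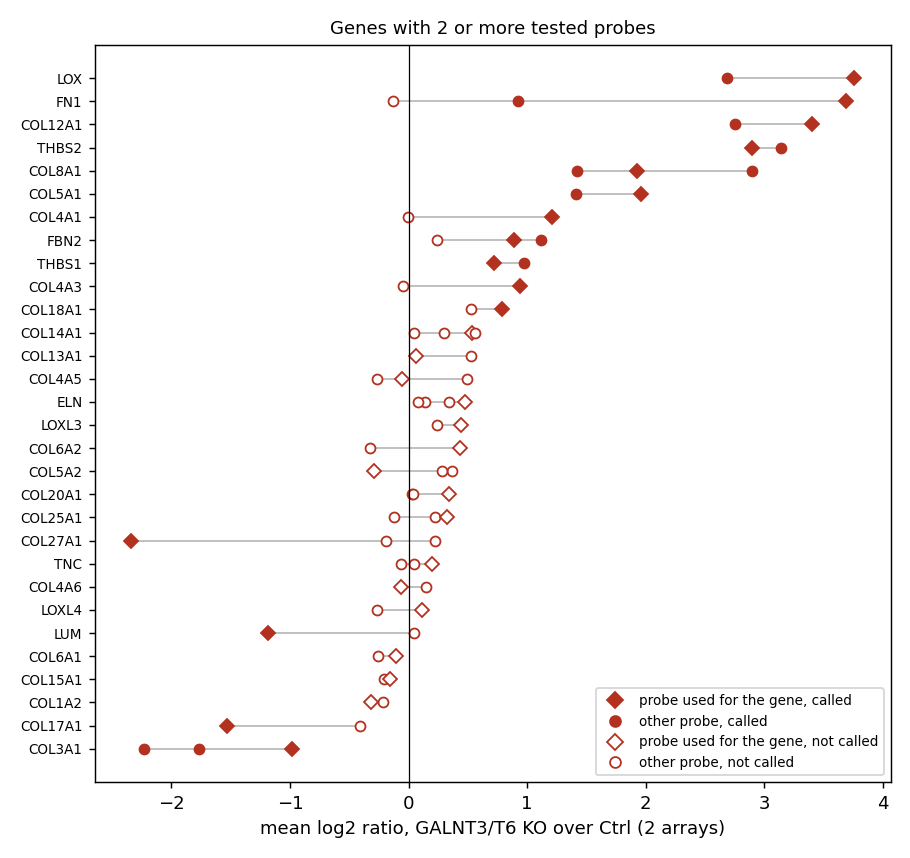
Mean log2 ratio on the GALNT3/T6 KO-labelled arrays for each tested probe of the 30 member genes with 2 or more probes; diamonds are the probe used for the gene, circles the others, and filled symbols were called. FN1 spans -0.13 to 3.69 and COL27A1 -2.34 to 0.22, while the THBS2 probes lie at 2.90 and 3.14.

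For some of the genes that rose, the Ctrl channel differed between the groups as well. On the GALNT3/T6 KO-labelled arrays the normalized Ctrl signal of FN1 was higher by 2.17 on the log2 scale than on the GALNT3 KO arrays, that of COL1A1 by 1.69, COL12A1 by 1.24, COL4A2 by 1.14, LOXL1 by 0.94, COL16A1 by 0.87 and LOX by 0.86. These are 7 of the 19 members called higher, or 36.8%, with a Ctrl channel at least 1.5-fold brighter, beside 12.6% of all 3861 genes called higher and 1.27% of the 18786 genes not called. Among the 8 members called lower there was none. A brighter Ctrl channel makes the ratio on the same array smaller, and the methods speak of corresponding Ctrl clones without stating whether 1 extract was used on all arrays. Its part in the results was not tested.

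**Figure D5:**
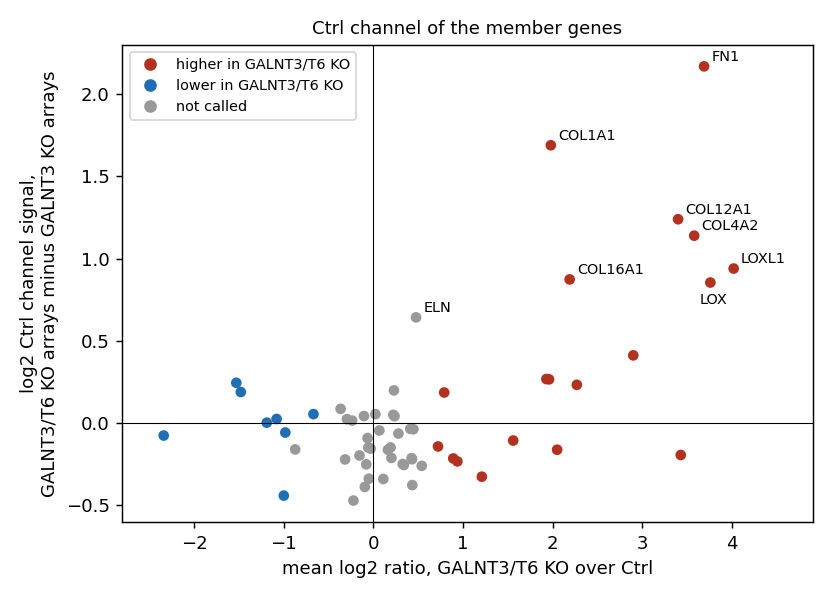
Difference of the log2 Ctrl channel signal between the arrays of the groups (y axis, GALNT3/T6 KO arrays minus GALNT3 KO arrays, mean of 2 each) against the mean log2 ratio on the GALNT3/T6 KO-labelled arrays (x axis) for the 60 tested members; colors give the call against Ctrl. FN1 at 2.17 and COL1A1 at 1.69 stand highest, and SPARC and POSTN rise with a level Ctrl channel.

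Markers of other cell types were read beside these genes. The summed KO signal of 5 fibroblast markers was 38715 and 43535 in GALNT3 KO, and 41711 and 55681 on the GALNT3/T6 KO-labelled arrays. Within that list PDGFRB was 3.09 and 3.79, FAP 2.76 and 3.00 and THY1 1.05 and 1.43 on the GALNT3/T6 KO-labelled arrays, all higher, while PDGFRA at -2.37 and -1.51 and ACTA2 at -2.46 and -1.99 were lower (limma). KRT18, an epithelial keratin, was 5.41 and 5.95 on the same arrays. Of 5 endothelial markers PECAM1 was not well above background in any channel, and the list summed to 3119 and 3672 against 4116 and 4538. The 5 leukocyte markers summed to 6428 and 6437 against 7101 and 7772, and the 4 ovarian and Müllerian markers to 3113 and 3854 against 4351 and 4727. The part of these markers in the results was not tested.

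Genes that build or anchor the same matrix were counted as well. Of 17 genes for collagen hydroxylation and folding 4 were higher and 5 lower on the GALNT3/T6 KO-labelled arrays, or 23.5% and 29.4%. Over all genes tested the shares were 14.2% and 16.8%. PLOD2, the lysyl hydroxylase of collagen telopeptides, was -2.17 and -1.98 in GALNT3 KO, and 3.65 and 4.21 on the GALNT3/T6 KO-labelled arrays, a difference of 6.00 between groups (adjusted p = 0.000429, limma). P3H2, a prolyl 3-hydroxylase of basement membrane collagen, differed by 3.35, and FKBP10, a collagen chaperone, by -1.66. Of 9 procollagen processing genes 2 were higher and 3 lower, or 22.2% and 33.3%. PCOLCE, the enhancer of the C-proteinase, led the lower ones at -2.48 and -2.58. ADAMTS3, a procollagen proteinase, and TLL2, a tolloid-like proteinase, differed between groups by -1.77 and -1.75.

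Of 12 fibronectin receptor and assembly genes tested 4 were higher and 2 lower on the GALNT3/T6 KO-labelled arrays. That was 33.3% and 16.7%, beside 14.2% and 16.8% of all genes, so the share lower was near the background. ITGAV, the integrin αV chain, was 0.87 and 0.82 in GALNT3 KO, and -1.68 and -2.23 on the GALNT3/T6 KO-labelled arrays, so both groups were called on opposite sides of Ctrl. PLAUR, the urokinase receptor, ran the other way, at -1.31 and -1.09 against 1.26 and 1.37. SDC4, the syndecan that works with integrins at focal adhesions, was higher in both groups, at 0.56 and 0.79 and at 2.90 and 2.57. Of 34 other elastic fibre and matrix glycoprotein genes 14 were higher and 4 lower, or 41.2% and 11.8%. EFEMP1, or fibulin-3, was 6.16 and 6.09 on the GALNT3/T6 KO-labelled arrays and not well above background in either channel of the GALNT3 KO arrays. TGFBI, a collagen-binding adhesion protein, was 4.94 and 5.81, and CYR61, a matricellular protein, 3.48 and 4.44. In GALNT3 KO these 4 lists together held 4 genes higher and 4 lower of 72 tested. That was 5.56% each way, beside 2.34% higher and 4.45% lower over all genes.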

How the data were processed

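The deposited scanner files hold spot intensities of 4 two-color Agilent arrays, extracted by the authors with Agilent Feature Extraction (8.5.1.1 per the labels, 10.7.3.1 in the file headers). The deposited value table repeats the scanner's log10 ratio, Cy5 over Cy3, rounded, per the file headers and values, with differences under 0.005. From the mean and background intensities, background was corrected with normexp (offset 50) and dyes were normalized by loess within arrays in limma 3.58.1 (R 4.3.3). Spots of a probe were averaged, and a gene took its brightest probe. Probes dim in both channels on some array of each group were left out. lmFit and eBayes fitted a mean per group over all 4 arrays, tested on simulated data. Signals per channel are those after loess and Aquantile scaling. Bounds compare the bright mean with the dim signal or, where larger, the lowest signal well above background, and are open to dye bias. Named genes are all members, the targeted genes, and from each pathway list the 3 called genes with the largest difference between groups. Members, gene lists and tests were chosen with earlier results of these data known. Alternatives changed the background correction, the scaling, the probe rule, the filter, the arrays, the replicate block, the sign of the GALNT3/T6 KO ratios and the test. Printed sequences come from the scanner files (hg19) and RefSeq (GRCh38.p14).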

Additional observations from a re-analysis of the deposited data

Results flagged for a closer look

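For 10 members every clone of one group lay above Ctrl and every clone of the other below it, and limma called the difference between the groups, GALNT3/T6 KO minus GALNT3 KO. They are 16.7% of the 60 members tested, beside 9.6% of all 27223 genes, and 12 members lay on opposite sides with or without a call. The log2 difference was 4.46 for LOXL1, 3.65 for COL12A1, 2.71 for COL16A1, 2.35 for POSTN, 2.09 for COL8A1 and 2.08 for COL1A1. It was 0.88 for LOXL3, -2.04 for BGN, -0.93 for COL1A2 and -0.85 for COL19A1. Only BGN among them was called against Ctrl on both sides, and the other GALNT3 KO means were between -0.52 and 0.62. COL19A1 was dim in the KO channel of the GALNT3/T6 KO-labelled arrays, so its value is fitted and only the bound of at least 1.45-fold holds. On those arrays GALNT3 itself was 4.80 and 5.08, against the label, and with their sign turned these genes would not lie on opposite sides of Ctrl.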

How the results depend on the processing

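Of the 180 log2 values of member genes, omitting the background correction or the filter on dim probes changed no call. Counts below are members higher and lower, in the order GALNT3 KO, GALNT3/T6 KO and the difference between groups, where they moved by over 1.5 times. The scanner's log ratio and the deposited value table each left 1 higher in GALNT3 KO, and the mean of all probes 1 higher and 0 lower. Fitting the arrays of GALNT3 KO alone gave 3 lower there, and an unadjusted p 2 lower. The methods' t-test with unadjusted p gave 0 higher in GALNT3 KO, and 7 higher and 5 lower in GALNT3/T6 KO. After Benjamini-Hochberg it called 0 members in every comparison and direction, where limma called up to 19. Over all 27223 genes it then called 0 higher and 0 lower in GALNT3 KO. For GALNT3/T6 KO it called 0 and 1, and between the groups 20 and 8, so the 0 is not particular to the members. In the pathway lists, GALNT3 KO had 1 gene higher with the scanner's log ratio or the value table, 2 with the mean of all probes, and 7 lower with its own arrays only. The methods' t-test gave 11 higher and 3 lower in GALNT3/T6 KO for them, and 0 throughout after adjustment.

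The clone numbers gave no pairing (correlation of deviations -0.237 over 2 pairs). With the number as a replicate block, 0 members were higher and 0 lower in GALNT3 KO, and 13 and 6 between the groups. The pathway lists then held 0 higher and 1 lower in GALNT3 KO. Over all genes the block left 30 higher and 51 lower in GALNT3 KO, from 638 and 1211 without it. A crossed replicate block, added after seeing the data, gave 3 members higher and 3 lower in GALNT3 KO. With the sign of the GALNT3/T6 KO ratios turned, also added after seeing the data, 8 members were higher and 19 lower against Ctrl and 7 and 27 between groups, and 14 pathway genes higher and 24 lower against Ctrl and 15 and 29 between groups.

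Leaving out 1 array at a time, members higher numbered 0 to 3 in GALNT3 KO, 16 to 22 in GALNT3/T6 KO and 5 to 20 between groups, and members lower 0 to 3, 7 to 11 and 1 to 10. Pathway genes higher numbered 0 to 5, 19 to 26 and 8 to 31, and lower 0 to 7, 11 to 18 and 1 to 16. With 1 array left in a group, its spread was taken from the other group, and calls changed over all genes as well. The FN1 3′ probe was between 3.21 and 4.17 in GALNT3/T6 KO, and the middle probe between 0.41 and 1.45 there and between 0.62 and 1.65 for the difference. The fitted difference of the 3′ probe, 3.59 and between 3.1 and 4.07, sets a signal against dim readings and shows no stability. The methods' t-test, adjusted, called neither the 3′ probe's ratio of 3.69 nor that difference, and without adjustment it did not call the former. The middle probe's 0.93 was not called with its group's arrays only or by the methods' t-test. Its difference was called with the scanner's log ratio or the value table, at 1.49, and at an unadjusted p with 1.13. COL5A2, not called with all arrays, changed sign with the clone left out (limma). Without GALNT3/T6 KO replicate 1 its ratio was 0.66 (adjusted p = 0.00688) and its difference 1.05, and without GALNT3/T6 KO replicate 2 they were -1.25 and -0.87 (adjusted p = 0.00623 for the latter). The cause was not tested. Dim probes limit FN1 in GALNT3 KO, COL19A1 and COL8A2.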
